A study of Mus musculus with 18 samples.

Results

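Matrix metalloproteinases (MMPs) and their tissue inhibitors (TIMPs) were examined in cardiac Thy1+ cells of 3 mouse strains. The set holds 8 genes chosen by name, 4 proteases (Mmp2, Mmp3, Mmp14 and Mmp23) and 4 inhibitors (Timp1, Timp2, Timp3 and Timp4). Ensembl identifiers in the count tables were matched to symbols, and all 8 genes were found among 53342 identifiers. All 8 passed the filter on low counts, which left 15762 genes for testing.

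MMPs are zinc-dependent enzymes that cut collagens, proteoglycans and other matrix proteins, and most are made as inactive precursors that need to be cleaved. TIMPs bind the active site of the enzymes and block it. Cardiac fibroblasts make both, and the matrix of the heart is remodelled through the action of one set on the other. Levels of mRNA measure neither enzyme activity nor protein.

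RNA was sequenced from Thy1+ cells sorted from hearts, in 18 libraries. Thy1 is a cell surface protein carried by many cardiac fibroblasts. The labels write the population as Thy1+ HE in one place and Thy1+HE- in another, and HE is not spelled out. The mice received isoproterenol (ISO), a drug that activates beta-adrenergic receptors, or saline (sham) from implanted pumps, and the question of the study was whether the response of cardiac fibroblasts varies with genetic background. The groups were KK/HlJ, C3H/HeJ and C57BL/6 mice, each with ISO at day 21, ISO at day 14 and sham, and each of these 9 groups had 2 libraries. Sham labels carry no day, so the same sham libraries of a strain served both days, and the comparisons of day 21 and day 14 with sham share them. The age of the mice, and whether the 2 libraries of a group came from separate animals or pools, are not given in the labels. The p-values therefore rest on differences between libraries that may be only technical. In bulk RNA, fewer cells of a type and less RNA per cell cannot be told apart.

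Total counts ran from 7230741 to 26280685 per library. Levels below are CPM, read counts scaled to the effective library size, or CPM per kb of exon where levels of different genes are compared, and marker sums are CPM of the total count. Summed levels of 12 fibroblast markers were 85509 to 129033 CPM, and none was at 0 in all libraries. That sum rests mostly on Gsn, with a mean of 71872 CPM at effective library size, and the next marker, Dcn, had 11437 CPM. Summed levels of 12 endothelial markers were 532 to 2055 CPM, of 12 pericyte and smooth muscle markers 1213 to 6576 CPM, of 12 macrophage markers 3.80 to 210.2 CPM and of 6 adipocyte markers 0 to 0.740 CPM. Of the other 6 marker sets, cardiomyocyte markers reached 530.3 CPM, mesothelial markers 527 CPM, erythroid markers 232 CPM, Schwann cell markers 169.8 CPM, T cell markers 14.5 CPM and neutrophil markers 4.37 CPM in the highest library. Of the T cell markers 4 of 10, and of the adipocyte markers 2 of 6, were at 0 in all libraries. Summed markers of activated fibroblasts were 2949.9 to 6667 CPM in the 12 ISO libraries, against 1194 to 1949 CPM in the 6 sham libraries. The part of these markers in the results below was not tested. A group of 4 libraries stood apart, namely replicate 1 of KK/HlJ ISO day 21, KK/HlJ ISO day 14, KK/HlJ sham and C3H/HeJ sham. Their median correlation with the other libraries was 0.811 to 0.847 in log2 CPM, against 0.862 to 0.912 for the other 14. Where a library is left out below, its group holds 1 library, which is assumed to vary like the other groups.

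The genes lie on mm10 as follows, all annotated as protein coding in GENCODE M21. The proteases are Mmp2 on the plus strand of chr8:92827291-92853420, Mmp3 on the plus strand of chr9:7445822-7455975, Mmp14 on the plus strand of chr14:54431612-54445364 and Mmp23 on the minus strand of chr4:155650655-155653384. The inhibitors are Timp1 on the plus strand of chrX:20870166-20874735, Timp2 on the minus strand of chr11:118301069-118355740, Timp3 on the plus strand of chr10:86300372-86349506 and Timp4 on the minus strand of chr6:115241892-115252205. A synapsin gene lies across 3 of the inhibitors on the opposite strand, Syn1 across Timp1, Syn3 across Timp3 and Syn2 across Timp4. The exons of Syn3 and Timp3 share 1733 bases and those of Syn2 and Timp4 share 90 bases. The setting for strand in the read counting is not given in the sources used here, so reads of these partners cannot be told apart. Syn3 had at most 95 counts in a library, against 5775 or more for Timp3, while Syn2 had up to 190 counts, against 144 or fewer for Timp4. Cep295nl shares no exon bases with Timp2, on the same strand, and had at most 191 counts.

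Promoter sequence is shown for Mmp3, whose levels set KK/HlJ apart, and for Timp1 and Timp3, the inhibitors with the largest log2 differences between ISO and sham among those with counts in every library. Each run holds 120 bases of the plus strand, 5′ to 3′, from RefSeq on GRCm38.p6 (mm10), ending 1 base before the start of the gene. For Timp3 this is the start in GENCODE, and the run ends 41 bases upstream of the start in RefSeq. Capitals mark the AP-1 motif TGANTCA, the TATA box TATAAA and the Sp1 box GGGCGG or its reverse complement.
Mmp3, chr9:7445702-7445821: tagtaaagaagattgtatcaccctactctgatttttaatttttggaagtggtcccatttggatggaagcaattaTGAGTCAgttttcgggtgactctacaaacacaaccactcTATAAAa
Timp1, chrX:20870046-20870165: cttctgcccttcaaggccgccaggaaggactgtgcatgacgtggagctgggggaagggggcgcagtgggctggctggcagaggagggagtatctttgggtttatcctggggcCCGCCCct
Timp3, chr10:86300252-86300371: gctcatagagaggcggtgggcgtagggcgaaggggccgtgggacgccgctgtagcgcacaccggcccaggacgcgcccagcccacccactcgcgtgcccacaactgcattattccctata
The Mmp3 window had 35.8% G and C, against 65% for Timp1 and 67.5% for Timp3. In Mmp3 an AP-1 motif began 46 bases and a TATA box 7 bases upstream of the start, and in Timp1 an Sp1 box began 8 bases upstream. In Timp3 an Sp1 box began 15 bases upstream of the RefSeq start, past the end of the run shown. Timp2 and Mmp14 also held Sp1 boxes in the 250 bases upstream. Over the 250 bases upstream, both strands, TGANTCA was found in 6.749%, TATAAA in 12.37% and GGGCGG in 32.74% of 32851 RefSeq promoters. Of the 7 members in the promoter table, Mmp3 alone held TGANTCA or TATAAA there. A match describes the letters and shows no binding, and the reference derives from C57BL/6, so the letters of KK/HlJ and C3H/HeJ were not analysed here.

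Per length, the secreted gelatinase Mmp2 and the inhibitor Timp2 were the most abundant members. Mean levels over the 18 libraries were 781 CPM per kb for Mmp2 and 689 CPM per kb for Timp2. Timp1 followed at 256 CPM per kb, Mmp23 at 153 CPM per kb and Timp3 at 133 CPM per kb. Mmp14 had 43.5 CPM per kb, Mmp3 had 37.0 CPM per kb and Timp4 had 0.470 CPM per kb. Mmp2 made up 60.9% to 84.0% of the summed level of the 4 proteases in a library, and Timp2 made up 48.1% to 78.6% of that of the 4 inhibitors. The 2 replicates of a group lay closest for Timp2 and Mmp2, with a mean absolute difference of 0.34 and 0.38 on the log2 scale. The same measure was 1.88 for Mmp3 and 1.92 for Mmp14, above 94.2% and 94.6% of 10047 genes with a mean of at least 5 CPM.

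**Figure D1:**
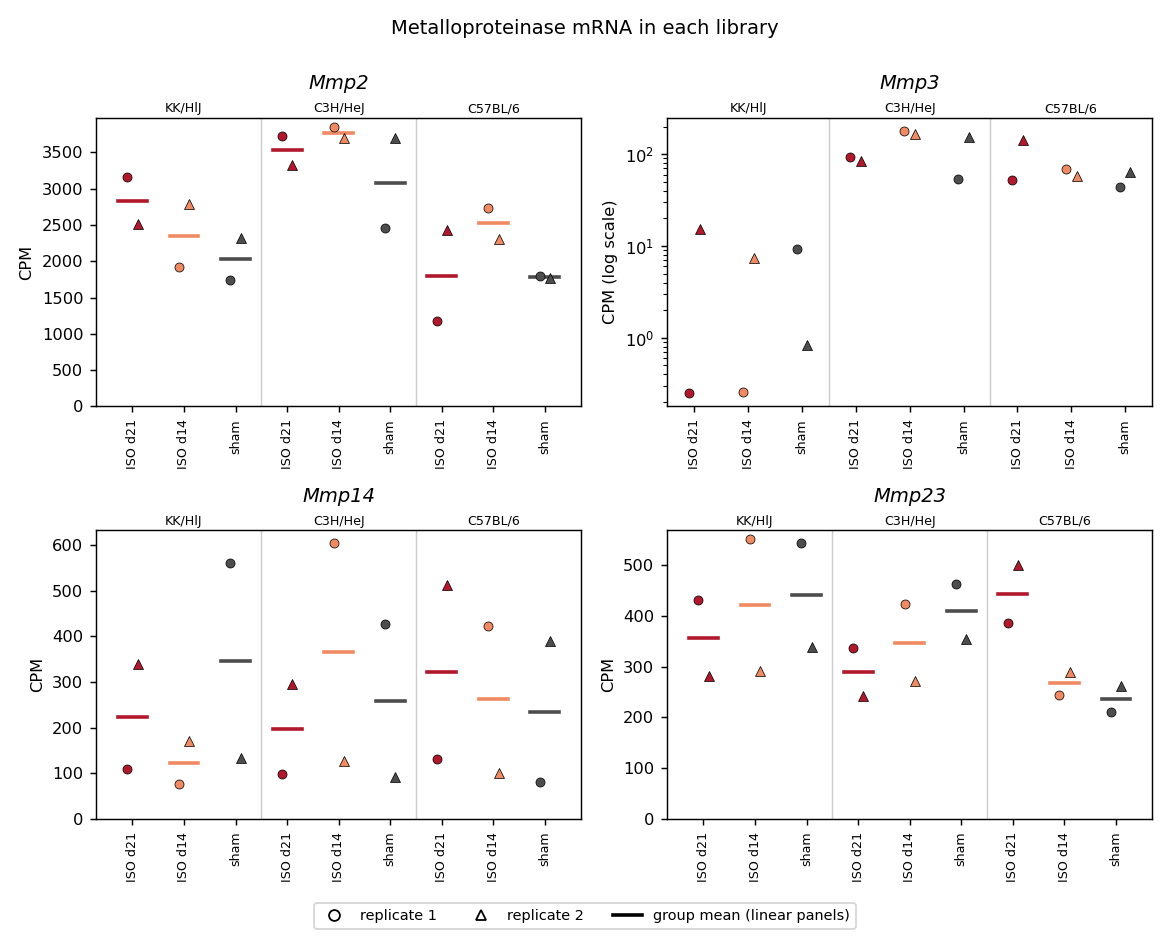
Levels of the 4 proteases in CPM (vertical axis, logarithmic for Mmp3) in every library, by strain and condition; points are libraries. Bars are group means and are not drawn for Mmp3. Mmp3 had 15.2 CPM or less in the 6 KK/HlJ libraries and 44.4 CPM or more in the other 12, and the Mmp14 replicates of each group differed by 2.22-fold or more.

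Mmp2 encodes gelatinase A, which degrades denatured collagen and basement membrane collagen. Its levels were highest in C3H/HeJ. In KK/HlJ, Mmp2 had 3162 and 2514 CPM at ISO day 21, 1919 and 2783 CPM at ISO day 14, and 1744 and 2317 CPM in sham. In C3H/HeJ, Mmp2 had 3730.3 and 3328 CPM at ISO day 21, 3845 and 3699 CPM at ISO day 14, and 2459 and 3701 CPM in sham. In C57BL/6, Mmp2 had 1173 and 2428 CPM at ISO day 21, 2739 and 2305 CPM at ISO day 14, and 1795 and 1773 CPM in sham. The ISO and sham libraries overlapped in most strain and day pairs. They stood apart, with ISO higher, in KK/HlJ at day 21 and in C57BL/6 at day 14. How many of all genes did so is not given here. Over all conditions, 5 of the 6 C3H/HeJ libraries lay above all 6 C57BL/6 libraries, and the sixth, C3H/HeJ sham replicate 1, lay within their range. The log2 difference of C3H/HeJ from C57BL/6 was 0.78 (SE 0.19, 95% interval 0.38 to 1.18), which missed the threshold in edgeR's quasi-likelihood test (adjusted p = 0.0771). DESeq2 gave an adjusted p of 0.00414 and limma voom 0.00244 for it, and limma voom without the 4 libraries that stood apart gave 0.88 (adjusted p = 0.00574). With single libraries left out in edgeR it was 0.64 to 0.99, and it passed the threshold in some of these fits and missed it in others. Among those that passed, it was 0.82 without C57BL/6 ISO day 14 replicate 1 and 0.99 without C57BL/6 ISO day 21 replicate 2. It was 0.86 without C3H/HeJ sham replicate 1 and 0.81 without C3H/HeJ ISO day 21 replicate 2. In that order, the highest prior degrees of freedom of any gene in these fits were 118, 73.2, 649 and 9001. With all libraries the highest was 13.1, so these fits can lean more on the trend over genes. The prior degrees of freedom of Mmp2 itself are not given here. The log2 difference of KK/HlJ from C3H/HeJ was -0.53 (SE 0.19, adjusted p = 0.533, edgeR), and that of KK/HlJ from C57BL/6 was 0.25 (SE 0.19).

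Mmp3 encodes stromelysin, which cuts proteoglycans, fibronectin and laminin and activates other MMP precursors. Its reads were scarce in KK/HlJ, 2 to 177 counts a library, against 691 to 4415 in C3H/HeJ and 602 to 2081 in C57BL/6. In KK/HlJ, Mmp3 had 0.249 and 15.2 CPM at ISO day 21, 0.260 and 7.33 CPM at ISO day 14, and 9.32 and 0.831 CPM in sham. In C3H/HeJ, Mmp3 had 92.7 and 85.2 CPM at ISO day 21, 179.7 and 165 CPM at ISO day 14, and 54.3 and 155 CPM in sham. In C57BL/6, Mmp3 had 53.1 and 144 CPM at ISO day 21, 69.0 and 58.7 CPM at ISO day 14, and 44.4 and 64.4 CPM in sham. Every KK/HlJ library lay below every library of the other strains, whatever the treatment, while KK/HlJ replicates differed up to 61.1-fold from each other. How many of all genes separate the strains in this way is not given here. The log2 difference of KK/HlJ from C3H/HeJ was -4.45 (SE 0.98, 95% interval -6.64 to -2.25), with an edgeR adjusted p of 0.174. That of KK/HlJ from C57BL/6 was -3.71 (SE 0.95, 95% interval -5.83 to -1.58), with an edgeR adjusted p of 0.366. Both differences missed the threshold in edgeR and passed it in DESeq2 (-4.43 and -3.72, adjusted p of 4.27e-05 and 0.00234) and in limma voom (-6.11 and -5.35, adjusted p of 0.00606 and 0.0304). Leaving out KK/HlJ ISO day 21 replicate 2 moved them farthest in edgeR, to -6.07 and -5.33. In limma voom without the 4 libraries that stood apart they were -4.85 (adjusted p = 0.0153) and -3.88 (adjusted p = 0.0655). In edgeR's robust fit the spread of Mmp3 was taken mostly from its own libraries, with 0.898 prior degrees of freedom, against 13.1 for Timp3. The log2 difference of C3H/HeJ from C57BL/6 was 0.74 (SE 0.85). Within KK/HlJ the log2 difference of ISO from sham was 0.56 (SE 1.55) at day 21 and -0.33 (SE 1.54) at day 14. Leaving out replicate 2 of that ISO group, the higher one, gave -4.31 at day 21 (adjusted p = 3.81e-05) and -4.25 at day 14 (adjusted p = 0.000234). Leaving out the 4 libraries that stood apart turned the direction, with 4.18 at day 21 (adjusted p = 1.49e-07) and 3.11 at day 14 (adjusted p = 0.000396), where 1 KK/HlJ ISO library was set against 1 sham library. All of these were edgeR fits that took the spread from the trend over genes, so the direction in KK/HlJ depends on which libraries are kept. Whether KK/HlJ variants in the gene changed how its reads mapped to the C57BL/6-derived genome was not tested.

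Mmp14 encodes a membrane-bound MMP that cuts fibrillar collagen at the cell surface and activates the Mmp2 precursor. Its 2 replicates differed by 2.22-fold or more in each of the 9 groups, and by 4.80-fold at most. In KK/HlJ, Mmp14 had 109 and 339.9 CPM at ISO day 21, 76.5 and 170.2 CPM at ISO day 14, and 561 and 133 CPM in sham. In C3H/HeJ, Mmp14 had 98.04 and 295 CPM at ISO day 21, 606 and 126 CPM at ISO day 14, and 427 and 91.9 CPM in sham. In C57BL/6, Mmp14 had 130.3 and 512 CPM at ISO day 21, 423 and 101 CPM at ISO day 14, and 81.4 and 389 CPM in sham. ISO and sham libraries overlapped in every strain and day. The higher library of a group had 295 CPM or more, except in KK/HlJ ISO day 14, where it had 170.2 CPM. The log2 difference of ISO from sham, mean over strains and days, was -0.24 (SE 0.64, 95% interval -1.66 to 1.19). In KK/HlJ it was -0.63 (SE 1.29) at day 21 and -1.49 (SE 1.31) at day 14. Leaving out replicate 2 of the ISO group gave -1.67 at day 21 (adjusted p = 0.046) and -2.18 at day 14 (adjusted p = 0.0018), and leaving out C57BL/6 sham replicate 2 gave -2.89 for the ISO response of KK/HlJ minus that of C57BL/6 (adjusted p = 0.00448), against -1.36 (SE 1.58) with it. Without the 4 libraries that stood apart, the means over strains turned direction. They were 0.97 at day 21, 0.83 at day 14 and 0.90 over both days, against -0.19, -0.28 and -0.24 with all libraries. In C3H/HeJ at day 14 the difference kept its direction, at 2.00 without those 4 and 0.50 (SE 1.28) with them. These were edgeR fits that took the spread from the trend over genes, not from Mmp14 itself.

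Mmp23 encodes a small MMP that is anchored in the membrane and released by cleavage. In KK/HlJ, Mmp23 had 432 and 281 CPM at ISO day 21, 551 and 291 CPM at ISO day 14, and 544 and 338 CPM in sham. In C3H/HeJ, Mmp23 had 338 and 243 CPM at ISO day 21, 423 and 272 CPM at ISO day 14, and 463 and 355 CPM in sham. In C57BL/6, Mmp23 had 387 and 499.9 CPM at ISO day 21, 244 and 290.3 CPM at ISO day 14, and 210.4 and 262 CPM in sham. The day 21 ISO libraries stood above the sham libraries in C57BL/6 and below them in C3H/HeJ, and the 2 groups overlapped in KK/HlJ. How many of all genes stood apart in this way is not given here. With 2 libraries against 2, such a separation is not read as a response. The log2 difference at day 21 was 0.91 (SE 0.37) in C57BL/6, -0.50 (SE 0.37) in C3H/HeJ and -0.31 (SE 0.37) in KK/HlJ, and none passed edgeR's test (adjusted p of 1, 0.836 and 0.902). Tested over both days, the ISO difference of C3H/HeJ minus that of C57BL/6 was -0.91 on the log2 scale (SE 0.45, edgeR adjusted p = 0.9999).

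**Figure D2:**
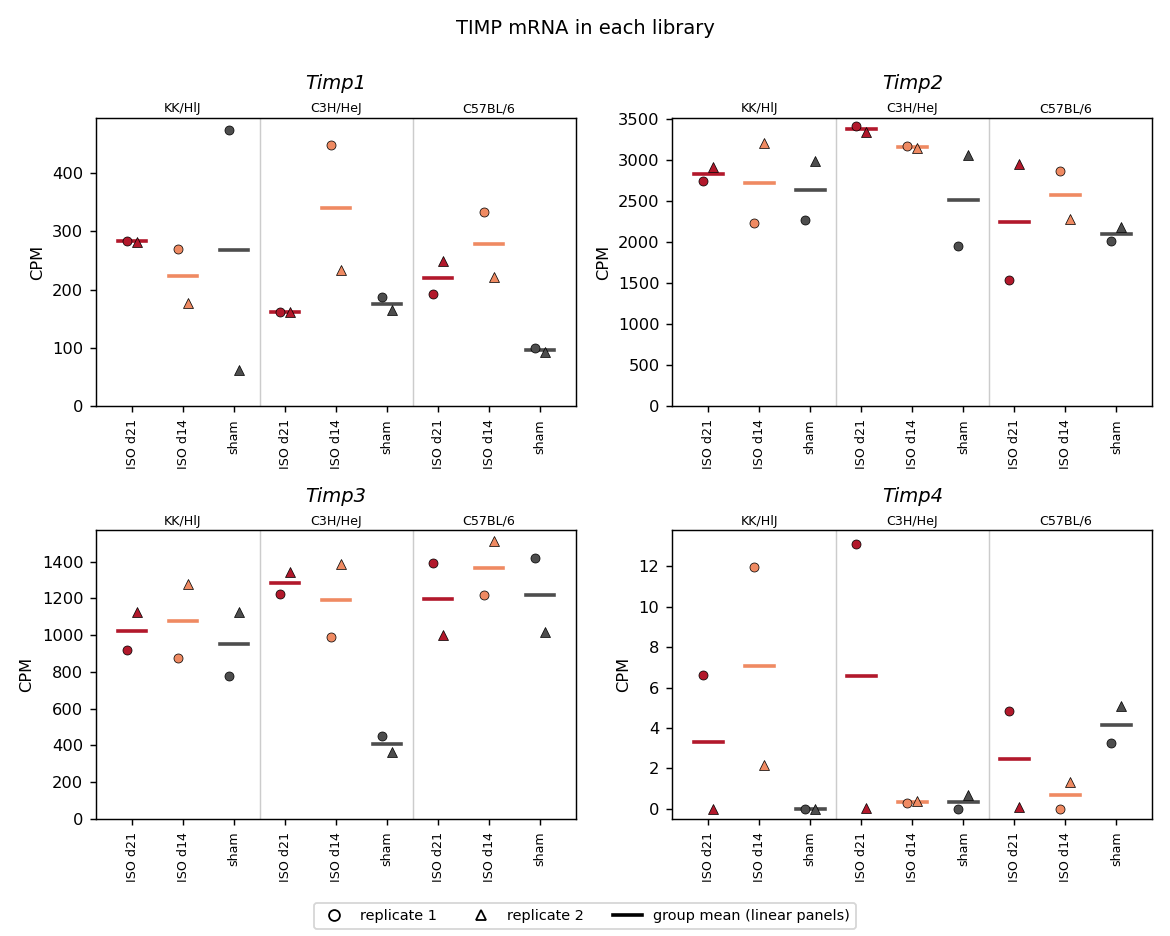
Levels of the 4 inhibitors in CPM (vertical axis) in every library, by strain and condition; points are libraries. Both C3H/HeJ sham libraries had the lowest Timp3 levels of the 18, at 454 and 366 CPM.

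Timp1 encodes a secreted inhibitor of most soluble MMPs. In KK/HlJ, Timp1 had 284 and 283 CPM at ISO day 21, 270.0 and 178 CPM at ISO day 14, and 474 and 62.5 CPM in sham. In C3H/HeJ, Timp1 had 162 and 162 CPM at ISO day 21, 448 and 233 CPM at ISO day 14, and 188 and 164 CPM in sham. In C57BL/6, Timp1 had 192 and 249 CPM at ISO day 21, 333 and 223 CPM at ISO day 14, and 99.3 and 92.7 CPM in sham. The KK/HlJ sham libraries held the highest and the lowest Timp1 level of the 18, a 7.58-fold difference between replicates. ISO libraries stood above both sham libraries in C57BL/6 at both days and in C3H/HeJ at day 14. Both C3H/HeJ libraries of day 21 lay just below the sham libraries. For such separations the share over all genes is not given here. The log2 difference from sham in C57BL/6 was 1.20 (SE 0.61) at day 21 and 1.53 (SE 0.62) at day 14, each with an edgeR adjusted p of 1. The mean over strains was 0.39 (SE 0.35) at day 21 and 0.74 (SE 0.35, 95% interval -0.01 to 1.49) at day 14, where the edgeR adjusted p was 0.898. Leaving out KK/HlJ sham replicate 1, the mean over strains in edgeR was 1.09 at day 21 and 1.44 at day 14. The difference in KK/HlJ at day 21 was 2.18 without that library, against 0.08 (SE 0.60) with it. The fit without it had 71.8 prior degrees of freedom for Timp1, so the spread came mostly from the trend over genes. The remaining KK/HlJ sham library then had the lowest Timp1 level of all 18. Leaving out KK/HlJ ISO day 14 replicate 2 gave 0.83 at day 14 over strains (adjusted p = 0.0235), in an edgeR fit that took the spread from the trend over genes. The ISO difference of KK/HlJ minus that of C57BL/6 was -1.46 on the log2 scale (SE 0.74, edgeR adjusted p = 0.930). It was -2.28 with KK/HlJ sham replicate 2 left out, in an edgeR fit with 81.8 prior degrees of freedom for Timp1.

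Timp2 encodes an inhibitor that also joins Mmp14 at the cell surface in the complex that activates the Mmp2 precursor. In KK/HlJ, Timp2 had 2746 and 2914 CPM at ISO day 21, 2229.6 and 3205 CPM at ISO day 14, and 2274 and 2987 CPM in sham. In C3H/HeJ, Timp2 had 3420.5 and 3345 CPM at ISO day 21, 3173 and 3153 CPM at ISO day 14, and 1958 and 3063 CPM in sham. In C57BL/6, Timp2 had 1541 and 2956 CPM at ISO day 21, 2862 and 2278 CPM at ISO day 14, and 2016 and 2185 CPM in sham. All 4 C3H/HeJ ISO libraries stood above both sham libraries of that strain, by a log2 difference of 0.43 (SE 0.33) at day 21 and 0.33 (SE 0.33) at day 14, and neither passed edgeR's test (adjusted p of 0.836 and 1). For this separation in C3H/HeJ the share over all genes is not given here. Over the strains and both days the log2 difference from sham was 0.22 (SE 0.16, 95% interval -0.12 to 0.56).

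Timp3 encodes an inhibitor that stays bound to the matrix and also blocks ADAM and ADAMTS proteases. The ISO and sham libraries stood farthest apart in C3H/HeJ. In KK/HlJ, Timp3 had 920.2 and 1127 CPM at ISO day 21, 875 and 1281 CPM at ISO day 14, and 779 and 1129 CPM in sham. In C3H/HeJ, Timp3 had 1224 and 1342 CPM at ISO day 21, 992 and 1387 CPM at ISO day 14, and 454 and 366 CPM in sham. In C57BL/6, Timp3 had 1394 and 999 CPM at ISO day 21, 1219 and 1513 CPM at ISO day 14, and 1420.1 and 1020.0 CPM in sham. The 4 C3H/HeJ ISO libraries were at the levels of the other strains, and the 2 C3H/HeJ sham libraries lay below all 16 others. How many of all genes separate these libraries so is not given here. The log2 difference from sham in C3H/HeJ was 1.65 (SE 0.33, 95% interval 0.96 to 2.33) at day 21 and 1.54 (SE 0.33, 95% interval 0.86 to 2.22) at day 14. Neither passed edgeR's test (adjusted p of 0.418 and 0.373, unadjusted p of 5.3e-05 and 0.000115), and DESeq2 gave adjusted p of 0.000539 and 0.00234. Without the 4 libraries that stood apart, C3H/HeJ sham replicate 1 among them, the log2 difference in limma voom was 1.83 at day 21 (adjusted p = 0.651) and 1.73 at day 14 (adjusted p = 0.539). In edgeR the difference was 1.48 at day 21 without C3H/HeJ sham replicate 2, and 1.76 at day 14 without C3H/HeJ ISO day 14 replicate 1. The first fit took the spread of Timp3 mostly from the trend over genes, with 112 prior degrees of freedom, and the second wholly. With offsets for transcript length and GC content the differences were smaller, 0.95 at day 21 (adjusted p = 0.995) and 0.91 at day 14 (adjusted p = 1, edgeR). The difference without offsets was 0.10 (SE 0.32) and 0.18 (SE 0.32) in KK/HlJ, and -0.03 (SE 0.32) and 0.16 (SE 0.32) in C57BL/6. The ISO difference of C3H/HeJ minus that of C57BL/6, over both days, was 1.52 on the log2 scale (SE 0.40, unadjusted p = 0.00088), against a median of 0.18 over all genes tested, and did not pass after adjustment in edgeR (adjusted p = 0.9999). It was 0.79 with the offsets for length and GC content. In C3H/HeJ the summed pericyte and smooth muscle markers were 1460 and 1806 CPM at ISO day 21 and 1599 and 1955 CPM at ISO day 14, against 2107 and 2970.4 CPM in sham. The summed activated fibroblast markers in C3H/HeJ were 4491 and 4875 CPM at ISO day 21 and 4992 and 6237 CPM at ISO day 14, against 1194 and 1811 CPM in sham. The summed endothelial markers in C3H/HeJ were 552 to 2055 CPM in the 4 ISO libraries, against 713 and 887 CPM in sham. The summed Schwann cell markers in C3H/HeJ were 65.8 to 86.8 CPM in the 4 ISO libraries, against 160.4 and 145 CPM in sham, and the summed macrophage markers 12.6 to 210.2 CPM in ISO, against 5.43 and 8.26 CPM in sham. Their part in the Timp3 difference was not tested.

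Timp4 encodes an inhibitor best known from heart tissue. It had no count in 5 libraries and at most 144 counts in any. In KK/HlJ, Timp4 had 6.63 and 0 CPM at ISO day 21, 11.95 and 2.19 CPM at ISO day 14, and no count in either sham library. In C3H/HeJ, Timp4 had 13.1 and 0.0463 CPM at ISO day 21, 0.285 and 0.384 CPM at ISO day 14, and 0 and 0.685 CPM in sham. In C57BL/6, Timp4 had 4.85 and 0.0693 CPM at ISO day 21, 0 and 1.35 CPM at ISO day 14, and 3.25 and 5.08 CPM in sham. High and low libraries occurred in the same group, and no strain or treatment held all of the higher ones. Against a floor of 3 counts per library, the KK/HlJ ISO mean was at least 12.3-fold higher than sham at day 21, where 1 of 2 libraries carried all counts, and at least 26.3-fold higher at day 14. This floor covers counting error only, and edgeR's test did not pass at either day (adjusted p of 0.7895 and 0.885). The higher KK/HlJ ISO library was replicate 1 at both days, and both are among the 4 libraries that stood apart. Replicate 2 had 0 CPM at day 21 and 2.19 CPM at day 14, so the folds depend on keeping those libraries.

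No member passed the threshold of an adjusted p of 0.05 in any of 18 comparisons by edgeR's quasi-likelihood test, and the shares of all 15762 genes that did were small. For ISO against sham as a mean over strains, 0 of 8 members passed, where 0.0444% of genes passed at day 21, 0.0381% at day 14 and 0.0571% over both days. At an unadjusted p under 0.05 there were 2 members at day 21, 1 at day 14 and 1 over both days, and Timp3 was among them each time. The share of all genes at that level was 5.09% at day 21, 5.51% at day 14 and 6.69% over both days. DESeq2 called 1 member over both days, Timp3 (log2 difference 0.59, adjusted p = 0.0357), where it called 0.634% of all genes, and limma voom called 0 in these 3 comparisons. The edgeR log2 difference of Timp3 over both days was 0.60 (SE 0.16, 95% interval 0.26 to 0.94, adjusted p = 0.302). With KK/HlJ sham replicate 2 left out it was 0.70, in a fit with 81.8 prior degrees of freedom for Timp3. The members' median log2 difference was 0.31 at day 21, 0.28 at day 14 and 0.29 over both days, against 0.03, 0.02 and 0.03 over all genes tested.

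Within strains, ISO against sham again gave 0 of 8 members by edgeR. In KK/HlJ, 0.019% of all genes passed at day 21 and 0% at day 14. In C3H/HeJ, 0% passed at day 21 and 0.0127% at day 14. In C57BL/6, 0% passed at day 21 and 0% at day 14. Each of these 6 comparisons held 1 member at an unadjusted p under 0.05. That member was Timp4 in KK/HlJ at both days, Timp3 in C3H/HeJ at both days, and in C57BL/6 Mmp23 at day 21 and Timp1 at day 14. The share of all genes at that level was 5.23% at day 21 and 4.74% at day 14 in KK/HlJ, 5.78% and 3.07% in C3H/HeJ, and 2.07% and 1.1% in C57BL/6. DESeq2 called 1 member, Timp3, at each day in C3H/HeJ, where it called 0.209% of all genes at day 21 and 0.171% at day 14, and 0 in the other 4 comparisons, and limma voom called 0 in all 6. ISO day 21 against ISO day 14 gave 0 of 8 members by edgeR, DESeq2 and limma voom in each strain, with 0% of all genes passing in KK/HlJ, 0% in C3H/HeJ and 0% in C57BL/6, and no member at an unadjusted p under 0.05 in edgeR.

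Between strains over all conditions, 0 of 8 members passed by edgeR, where 0.273% of genes passed for KK/HlJ against C57BL/6, 0.647% for C3H/HeJ against C57BL/6 and 0.406% for KK/HlJ against C3H/HeJ. Members at an unadjusted p under 0.05 were Mmp3 for KK/HlJ against C57BL/6, Mmp2 and Timp3 for C3H/HeJ against C57BL/6, and Mmp2 and Mmp3 for KK/HlJ against C3H/HeJ. The share of all genes at that level was 5.81%, 8.29% and 6.3% in the same order. DESeq2 and limma voom each called 1 member in each of these comparisons, Mmp3 in both comparisons with KK/HlJ and Mmp2 for C3H/HeJ against C57BL/6. In that order DESeq2 called 0.964%, 1.82% and 1.26% of all genes and limma voom 0.469%, 2.06% and 0.641%. When the ISO responses of strains were set against each other, 0 of 8 members passed by edgeR, with 0% of all genes passing for KK/HlJ minus C57BL/6, 0% for C3H/HeJ minus C57BL/6 and 0% for KK/HlJ minus C3H/HeJ. Each of these held 1 member at an unadjusted p under 0.05, where 5.11%, 3.57% and 4.18% of all genes were at that level in the same order, and DESeq2 and limma voom called 0. Timp3 was that member for C3H/HeJ minus C57BL/6 and for KK/HlJ minus C3H/HeJ (log2 difference -1.45, SE 0.40, edgeR adjusted p = 0.9327), and Timp4 for KK/HlJ minus C57BL/6.

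**Figure D3:**
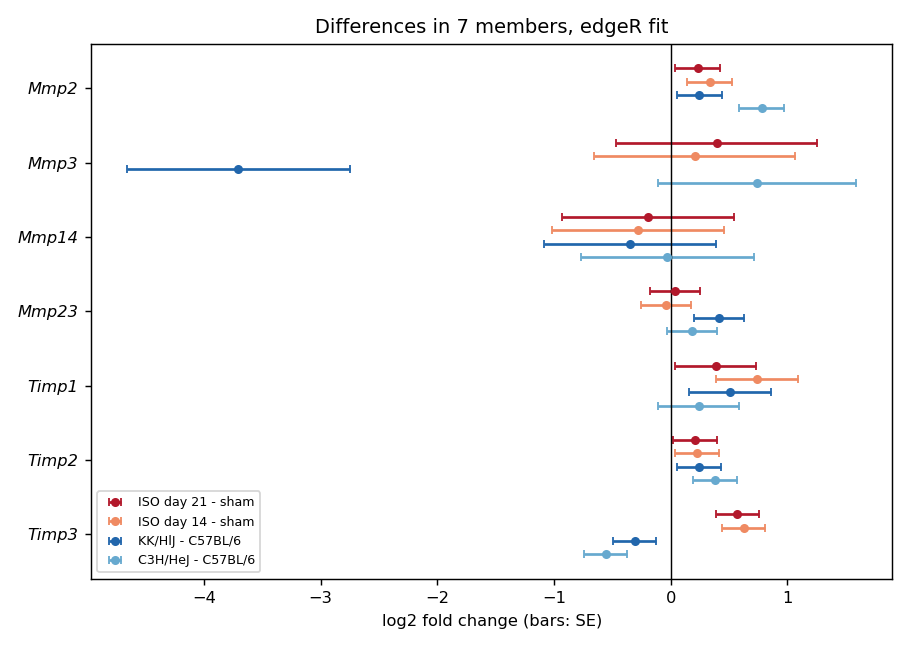
Log2 differences with SE (horizontal axis) of 7 members in 4 comparisons from edgeR, without Timp4, whose KK/HlJ sham libraries had no counts. Mmp3 in KK/HlJ against C57BL/6, at -3.71, is the farthest from 0, and no value passed the adjusted threshold.

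**Figure D4:**
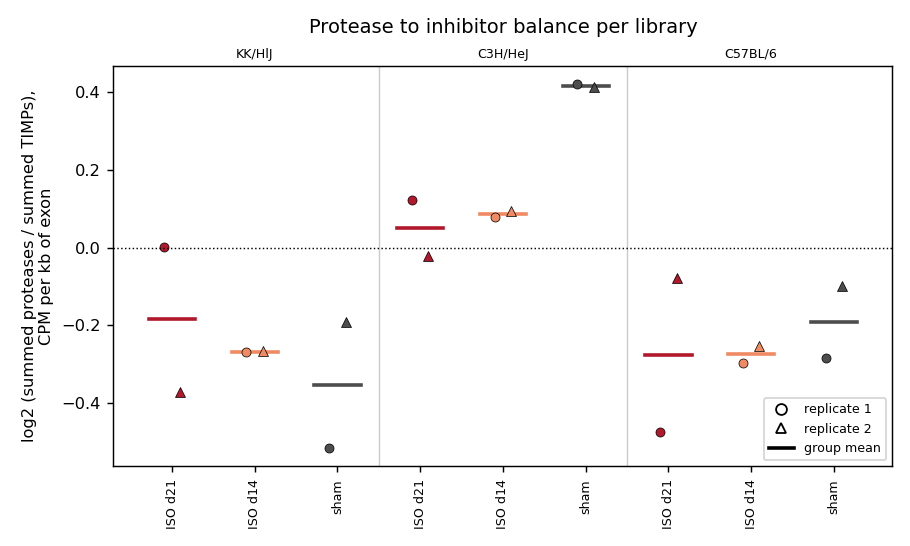
Log2 ratio of the summed level of 4 proteases to that of 4 inhibitors in CPM per kb (vertical axis) in every library; points are libraries and bars are group means. The C3H/HeJ sham libraries sit at 0.42 and 0.41, above the 16 other libraries.

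The balance of protease to inhibitor mRNA was taken as the log2 ratio of the summed CPM per kb of the 4 proteases to that of the 4 inhibitors. It carries no p, since it is a score over chosen members. In KK/HlJ it was 0.00 and -0.37 at ISO day 21, -0.27 and -0.27 at ISO day 14, and -0.51 and -0.19 in sham. In C3H/HeJ it was 0.12 and -0.02 at ISO day 21, 0.08 and 0.09 at ISO day 14, and 0.42 and 0.41 in sham. In C57BL/6 it was -0.47 and -0.08 at ISO day 21, -0.30 and -0.25 at ISO day 14, and -0.28 and -0.10 in sham. The mean ratio was thus above 0 in the 3 C3H/HeJ groups and below 0 in the 6 groups of the other strains. Without scaling by exon length it was above 0 in 1 group, and without Timp2 it was above 0 in all 9 groups. With all 8 genes, the 4 C3H/HeJ ISO libraries lay below both sham libraries, and in KK/HlJ and C57BL/6 ISO and sham libraries overlapped. Without Timp2 they overlapped in C3H/HeJ too, with ISO day 21 replicate 1 at 1.98 and sham replicate 1 at 1.95.

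Summed levels show which side of the ratio differed. In C3H/HeJ the inhibitors summed to 1213 and 1206 CPM per kb at ISO day 21 and 1441 and 1242 CPM per kb at ISO day 14, against 769 and 1016 CPM per kb in sham. The proteases of C3H/HeJ summed to 1319 and 1188 CPM per kb at ISO day 21 and 1522 and 1326 CPM per kb at ISO day 14, against 1029 and 1351 CPM per kb in sham. The inhibitor sums of ISO and sham libraries thus stood apart in C3H/HeJ and the protease sums overlapped. In C57BL/6 the inhibitors averaged 1057 CPM per kb in the 4 ISO libraries, against 798 in sham, and the proteases 887 CPM per kb in ISO, against 700.0 in sham. In KK/HlJ the inhibitors averaged 1127 CPM per kb in ISO libraries, against 1095 in sham, and the proteases 968 CPM per kb in ISO, against 852 in sham.

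**Figure D5:**
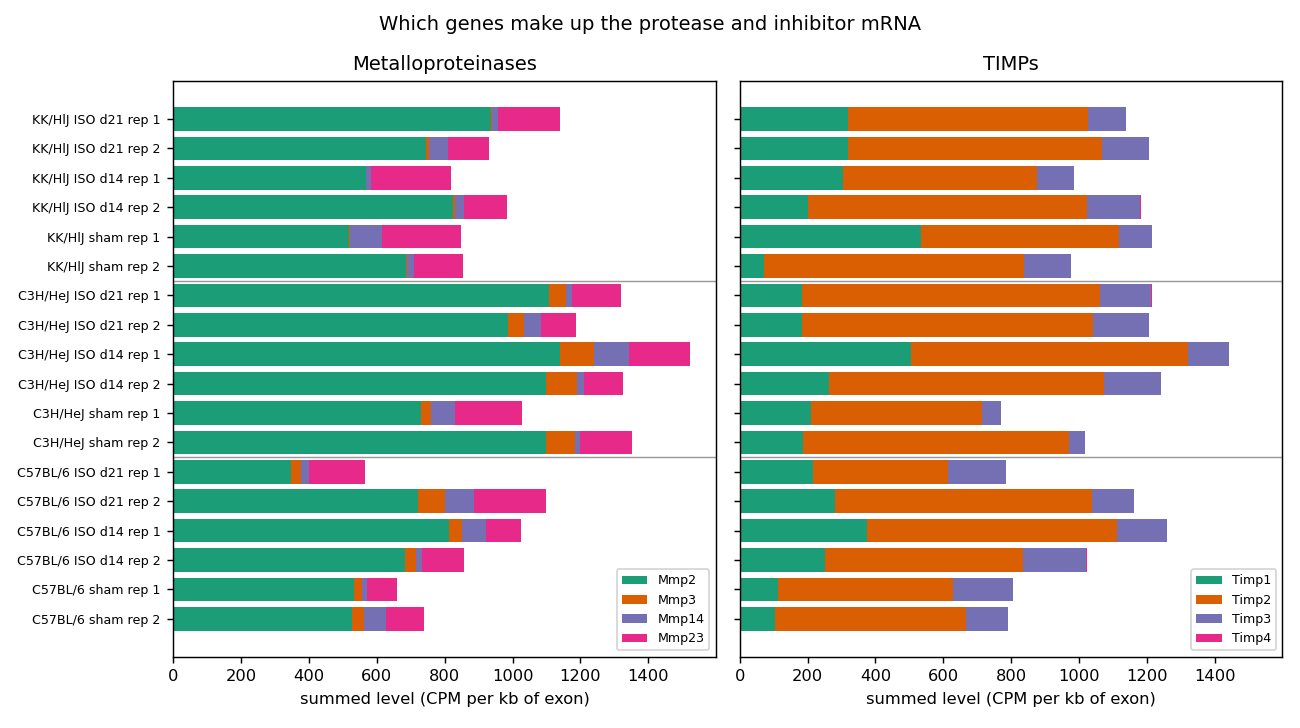
Summed levels of proteases and inhibitors in CPM per kb (horizontal axis) by library, split by gene. Mmp2 holds 60.9% to 84.0% of the protease bars and Timp2 holds 48.1% to 78.6% of the inhibitor bars.

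The log2 ratio of Mmp2 to Timp2 per length, the most abundant pair, was -0.19 to 0.54 over the 18 libraries. In C3H/HeJ it was 0.33 and 0.20 at ISO day 21, 0.49 and 0.44 at ISO day 14, and 0.54 and 0.48 in sham. In KK/HlJ it was 0.41 and -0.00 at ISO day 21, -0.01 and 0.01 at ISO day 14, and -0.17 and -0.16 in sham. In C57BL/6 it was -0.19 and -0.08 at ISO day 21, 0.15 and 0.23 at ISO day 14, and 0.04 and -0.09 in sham. In C57BL/6 no library was above 0.23, while 5 of the 6 C3H/HeJ libraries were at 0.33 or more. In C3H/HeJ at day 14 this ratio lay close to sham, whereas the balance over all 8 genes was lower than in sham, and the other inhibitors, Timp1 and Timp3, had higher levels in ISO libraries there. Across the 18 libraries Mmp2 and Timp2 had a Pearson r of 0.87 in log2 CPM, a description over libraries that share strain, treatment and composition. The log2 ratio of Mmp3 to Timp1 per length was -11.2 to -5.23 in the 6 KK/HlJ libraries, and -3.29 to -1.11 in the 12 libraries of the other strains.

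The genes with levels most like each member over the 18 libraries were found by Pearson r of log2 CPM among 9738 protein-coding genes with a mean of at least 5 CPM, as a description. Those of Mmp2 were Lamb2 (r = 0.91), Col1a1 (r = 0.91) and Anpep (r = 0.90). Those of Timp2 were Adamts2 (r = 0.88), Mmp2 (r = 0.87) and Polr1a (r = 0.86). Mmp3 was closest to Gpr39 (r = 0.95), Slx1b (r = 0.93) and Slc15a3 (r = 0.92), and Timp3 to Fchsd2 (r = 0.89), Rmnd5a (r = 0.88) and Atxn7 (r = 0.86). Genes close to Mmp14 included Eif4g3 (r = 0.89) and Lpl (r = 0.88), and Mmp23 was closest to Guk1 (r = 0.89), Tmed1 (r = 0.89) and Gemin7 (r = 0.87). Timp1 was closest to Csrp2 (r = 0.87), Mfap5 (r = 0.80) and Dap (r = 0.79). For Timp4 the highest were Slc48a1 (r = 0.77), Tcim (r = 0.76) and Pim3 (r = 0.76), over levels that rest on few reads.

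Other genes of matrix proteolysis were followed in 4 lists, and 0 of their 62 tested genes passed edgeR's test in either direction in any of the 18 comparisons. For ISO of both days against sham as a mean over strains, 0 of 9 tested of 19 other MMPs passed, 0 of 25 tested of 27 ADAM and ADAMTS proteases, 0 of 12 tested of 13 other inhibitors and clearance receptors, and 0 of 16 tested of 17 activators and other matrix proteases. At an unadjusted p under 0.05 in that comparison, 4 genes were higher and 3 lower, beside 6.69% of all genes, DESeq2 called 1 gene, Ctsk, and limma voom called 0. Ctsk encodes the collagen-degrading cathepsin K, and its log2 difference was 0.82 (SE 0.18, edgeR adjusted p = 0.0910). For C3H/HeJ against C57BL/6, 6 genes were higher and 4 lower at an unadjusted p under 0.05, beside 8.29% of all genes, DESeq2 called Mmp28 and the plasminogen activator Plat, both lower in C3H/HeJ, and limma voom called Plat. For KK/HlJ against C3H/HeJ, DESeq2 called Mmp28, higher in KK/HlJ. The list medians of the log2 difference for ISO of both days were -0.18, 0.22, 0.12 and 0.04 in the order of the lists above, against 0.03 over all genes tested. Among other MMPs the highest mean levels were those of Mmp11 at 14.9 CPM per kb and Mmp19 at 14.8 CPM per kb, below the 37.0 CPM per kb of Mmp3. Among activators and other matrix proteases the highest was Bsg, an inducer of MMP expression, at 439.8 CPM per kb, and among ADAM and ADAMTS proteases it was the procollagen protease Adamts2 at 102 CPM per kb.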

How the data were processed

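The deposited files hold read counts per Ensembl gene for 18 libraries, whole numbers with no normalization by the authors. Stranded mRNA libraries of cells sorted into TRIzol LS were sequenced as single-end reads, per the labels' protocols. Per the submitters' processing notes, FastQC, STAR 2.5.3a and edgeR were used with the mm10 genome. For the read counter, its strand setting and the annotation release, the sources used here give nothing. mm10 is the only build named and derives from C57BL/6, and variants of the other strains may reduce how many of their reads map.

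GENCODE M21 on mm10 gave symbols and exon lengths for 53237 of 53342 identifiers. Counts were fitted with edgeR 4.0.16 in R 4.3.3 (quasi-likelihood test, TMM scaling, default filter on the 9 groups, robust dispersions) in 1 fit of all 18 libraries, with 9 residual degrees of freedom. P-values were adjusted by Benjamini-Hochberg over all 15762 genes tested, with a threshold of 0.05. Each SE is the fold change divided by the square root of its F statistic, and 95% intervals use the test's degrees of freedom. CPM use effective library sizes, marker sums use total counts, and CPM per kb divide by the union of exons. The counting floor was 3 counts.

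Alternatives were DESeq2 1.42.0, limma 3.58.1 (voom with quality weights), RLE scaling, no filter, a mean of 5 CPM, a replicate block, only the groups compared, offsets for length and GC content, each library left out in turn, the 4 divergent libraries left out and, added after seeing the data, voom without those 4. The balance was recomputed with other lengths and members. The fit was tested on simulated data. All 8 members are reported, list genes when called or among the highest levels of their list, Ctsk because DESeq2 called it, and 3 similar genes per member by correlation in log2 CPM with a prior count of 2. Some genes that this rule names are not reported here. Members and lists were chosen with earlier results of these data known.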

Additional observations from a re-analysis of the deposited data

How the results depend on the processing

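The edgeR count of members called was 0 in all 18 comparisons, and it was also 0 with the replicate block, RLE scaling, a fit of only the groups compared, and offsets for length and GC content. Within strains, same-numbered libraries correlated at -0.102 to 0.163 in their deviations from group means, so replicate numbers showed little pairing there. Pairing across strains was not tested, and all 4 divergent libraries are replicate 1. DESeq2 called 1 member in 6 comparisons (ISO of both days over strains, both C3H/HeJ days and the 3 strain comparisons), and limma voom called 1 in each of the 3 strain comparisons. A minimum of 5 CPM called 1 for KK/HlJ against C3H/HeJ, where it called 56 of 10055 genes. No filter called 1 at both C3H/HeJ days and in the 3 strain comparisons, where it called 0.0878% to 0.863% of all genes. Without the 4 divergent libraries, edgeR called 4 over both days, 3 at day 21, 3 at day 14, and 3 for C3H/HeJ against C57BL/6. It called 2 in KK/HlJ at day 21, 2 in C3H/HeJ at day 14, and 1 in the other strain and day comparisons with sham, the other 2 strain comparisons and the 3 comparisons of ISO responses, where it called 0.153% to 6.78% of all genes. Over strains and both days, the log2 differences of the members called were 1.29 for Mmp3, 0.90 for Mmp14, 1.24 for Timp1 and 0.64 for Timp3. KK/HlJ groups and C3H/HeJ sham then hold 1 library each. In the fits with no filter and without those 4, and in 9 of 18 fits that left out 1 library, edgeR estimated infinite prior degrees of freedom, so a gene's own spread was not used. Limma voom without those 4, chosen after seeing the data, gave 0.88 for Mmp2 and 0.97 for Mmp3 in C3H/HeJ against C57BL/6. It gave -4.85 for Mmp3 in KK/HlJ against C3H/HeJ. Members passed in some fits with 1 library left out for ISO against sham in KK/HlJ and C3H/HeJ at each day, and over strains. They also did for KK/HlJ ISO day 21 against day 14, the 3 strain comparisons, and the ISO response of KK/HlJ against each other strain. The share of all genes passing in those fits is not given here, so these passes are not set against it. Balance means above 0 numbered 3 of 9 groups, 1 without length scaling, 9 without Timp2 and 2 to 4 with 1 library left out.

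Of 1080 alternative values for 49 log2 differences, 945 kept direction and side of the threshold, 60 newly passed it in the same direction and 75 turned direction, 4 of them past the threshold, and the cause was not tested. Those 49 cover the members other than Timp4, for ISO against sham over strains and for the strain comparisons. Added to them were chosen values of Timp1, Timp3 and Mmp23 within strains or between ISO responses. The differences of Mmp3 and Mmp14 within KK/HlJ are not among the 49, and that of Mmp3 turned direction there too. Mmp3 over strains was -0.14 at day 21, -0.12 at day 14 and -0.13 over both days in limma voom. Without the 4 divergent libraries, Mmp14 was 0.97 at day 21, 0.83 at day 14, 0.90 over both days and 0.0689 for KK/HlJ against C3H/HeJ, and in voom 0.97, 0.67, 0.82 and 0.29 in that order. Mmp23 with the length and GC offsets was 0.26 at day 14 and 0.29 over both days. Mmp23 without the 4 was 0.047 over both days, -0.0194 for KK/HlJ against C57BL/6 and -0.13 for KK/HlJ against C3H/HeJ, and in voom 0.0267, -0.0109 and -0.0844. Timp1 without the 4 was -0.31 for KK/HlJ against C57BL/6 and -0.51 for KK/HlJ against C3H/HeJ, and in voom -0.30 and -0.46. Mmp2 at day 21 was -0.0097 in voom without the 4. With 1 library left out, Mmp14 spanned -0.63 to 0.32 at day 21, -0.79 to 0.23 at day 14, -0.49 to 0.28 over both days, -0.82 to 0.16 for KK/HlJ against C57BL/6, -0.54 to 0.48 for C3H/HeJ against C57BL/6 and -0.79 to 0.19 for KK/HlJ against C3H/HeJ. Mmp3 spanned -1.23 to 1.26 at day 21, -1.10 to 1.07 at day 14 and -0.51 to 1.17 over both days. Mmp23 spanned -0.0792 to 0.16, -0.22 to 0.0869 and -0.10 to 0.12 in the same comparisons, and Timp1 spanned -0.20 to 0.78 for KK/HlJ against C57BL/6 and -0.44 to 0.54 for KK/HlJ against C3H/HeJ. Counts were low for Timp4 and, in KK/HlJ, for Mmp3.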
